A study of Mus musculus with 9 samples.

Results

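The 34 genes described here are markers of macrophages and of their blood precursors, the monocytes, measured in left ventricle of wild-type mice (WT) and of mice lacking delta-sarcoglycan (KO, called dSG in the labels), each given vehicle or ifetroban. They were taken as a fixed list of symbols, chosen with earlier results of these data known. All 34 were found among the 49671 gene identifiers of the deposited count tables and entered the test. Within the list, 4 genes mark resident macrophages of the heart (Lyve1, Folr2, Mrc1, Cd163), 4 mark the lipid-associated state (Trem2, Gpnmb, Lgals3, Cd9) and 3 mark monocytes (Ly6c2, Plac8, Clec4d). The other 23 were grouped by role into Fc receptors and their signalling adaptors, scavenger and innate receptors, lysosome and effector proteins, and genes of identity and signalling. The groups were WT vehicle (n = 2 libraries), WT ifetroban (n = 2), KO vehicle (n = 2) and KO ifetroban (n = 3). Polyadenylated RNA was sequenced in all of them. Delta-sarcoglycan is a membrane protein of the complex that links the muscle cell to its matrix, and ifetroban blocks the receptor for thromboxane and related prostanoids. The labels give no age, sex, dose or length of treatment, and do not say which exons the knockout lacks. Nor do they say that each library is a different animal, so the p-values speak only of the spread between these libraries, part of which may be technical. Libraries are named below by group and replicate number.

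The heart holds macrophages that settled before birth and renew themselves locally, carrying receptors for hyaluronan, folate, mannosylated proteins and haemoglobin. After injury to the muscle, monocytes leave the blood, enter the tissue and become macrophages, and cells that have engulfed membrane debris switch on a lysosomal and lipid-handling program in which the receptor TREM2 takes part. In muscle with a defective sarcoglycan complex, damage to fibres is followed by infiltration of such cells.

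The libraries held 21299748 to 31394548 counts in genes. Levels are given as CPM, the count of a gene scaled to a common library size, which compare libraries for 1 gene, and as CPM per kb of exon where genes are compared with each other. Several libraries stood apart before any gene of the list was considered. KO vehicle 1 and KO ifetroban 1 lay at the positive end of the first principal component of all tested genes (scores of 84.4 and 34.2 against -38.2 to 2.02 for the other 7), a component holding 47.5% of the variance. Genes with long transcripts were low in 4 libraries (KO vehicle 1, KO vehicle 2, KO ifetroban 1 and the one labelled WT vehicle 1) and high in the other 5, with Spearman correlations across genes of -0.417 to -0.290 and of 0.302 to 0.386. Sgcd, which encodes delta-sarcoglycan, stood at 28.9 to 33.1 CPM in 3 WT libraries and at 7.49 to 18.5 CPM in the KO libraries. In the library labelled WT vehicle 1 it was at 11.1 CPM, within the KO range. That library was also the only WT library low in long transcripts, and whether its label is right was not tested. The main counts and medians are therefore also given without these libraries where they bear on a comparison.

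Together the 34 genes made up 555 to 694 CPM in the 4 WT libraries and 1100 to 1488 CPM in the 5 KO libraries, a ratio of means of 1.92. No KO library overlapped a WT library in this sum. In the comparison of KO with WT averaged over both treatments (edgeR quasi-likelihood test, Benjamini-Hochberg adjustment over 15261 genes), 33 of the 34 genes had a positive log2 fold change (49.5% of all tested genes did), 12 rose at an adjusted p under 0.05 and none fell. Over all tested genes, 0.505% were called higher and 0.0328% lower in the same comparison. The median log2 fold change was 1.28 over the 34 genes and -0.00 over all genes tested. At an unadjusted p under 0.05, edgeR placed 29 of the 34 genes higher, against 10.6% of all genes, and in 25 of them the 5 KO libraries all lay above the 4 WT libraries, against 5.03% of all genes. The genes were chosen with earlier results of these data known, so these counts against all genes are not an independent test. In a bulk sample, fewer or more cells of a type and less or more RNA per cell cannot be told apart. The 12 genes that rose were Fcrls, Trem2, Lgals3, Ctss, Apoe, Mpeg1, Lyz2, Laptm5, Tyrobp, Plac8, Fcgr3 and Fgr. Ly6c2, Plac8 and Fgr passed the filter on low counts only because of the KO libraries, so their being tested already required a difference. Of the other 31 genes, 10 were called, 26 were higher at an unadjusted edgeR p under 0.05, and the median was 1.20. The 25 genes without overlap include Ly6c2, Plac8 and Fgr. Leaving out the library labelled WT vehicle 1 gave a median of 1.29, with 32 of 34 positive and no gene called. Leaving out any other WT library also left no gene called, and leaving out 1 KO library gave 5 calls (KO vehicle 1), 27 (KO vehicle 2), 4, 1 and 2 (KO ifetroban 1, 2 and 3). Calls over all genes moved too, from 82 with all libraries to 2 or 3 without 1 WT library and to 33, 2098, 22, 5 and 8 without the same KO libraries, so these shifts were not particular to the 34 genes. Without KO vehicle 1 and KO ifetroban 1 all 34 were positive (46% of all genes were) and the median was 0.95. Within the 4 libraries low in long transcripts (3 KO, 1 WT) the median difference was 1.32 and 31 of 34 genes were higher in KO. Within the 5 libraries high in them (2 KO, 3 WT) it was 1.14 and all 34 were higher.

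**Figure D1:**
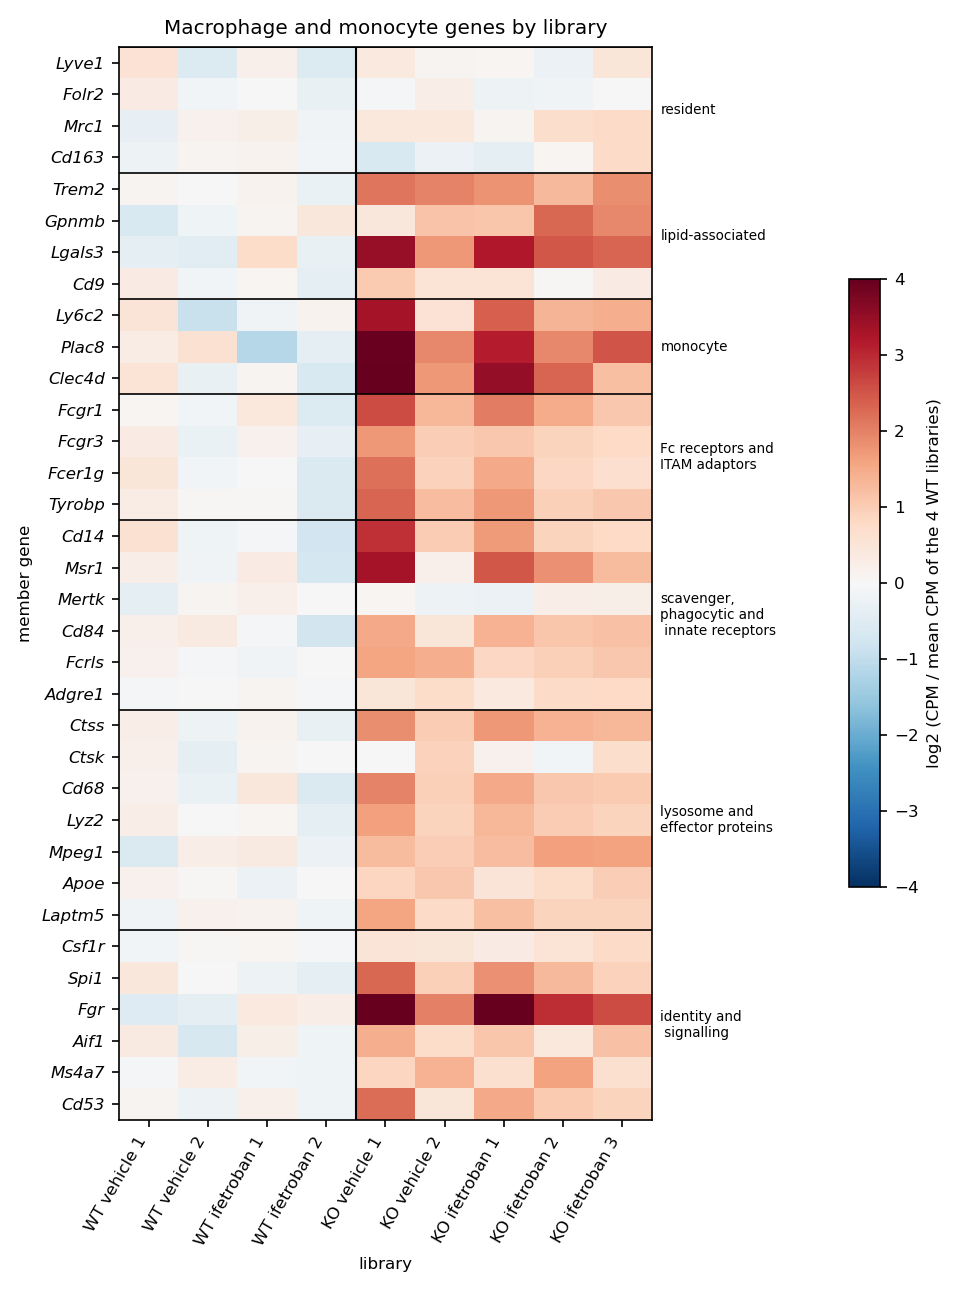
Level of each of the 34 genes (rows, grouped by role) in each of the 9 libraries (columns), as log2 of the CPM over the mean CPM of the 4 WT libraries; red is above and blue below that mean, and values past 4 have the colour of 4. The 4 resident genes at the top stay near the WT mean in the KO columns, while most other rows are red in all 5 KO columns and darkest in KO vehicle 1 for 27 of the 34 genes when the KO vehicle pair is compared.

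Upstream sequence was examined because PU.1, the product of the member Spi1, is the ETS-family factor that directs macrophage genes, and its core motif can be searched for as letters. RefSeq start sites on GRCm38.p6 were found for 27 of the 34 genes, and the 250 bases before each start were searched for AGGAAGT or its reverse complement ACTTCCT. The motif was in at least 1 window of 6 of the 27 genes (22.2%): Fcgr1, Fcrls, Folr2, Ly6c2, Lyz2 and Mrc1. The match of Fcrls, 75 bases before its RefSeq start, lies inside the annotated span of the gene, which reaches to 87263738. Over all 27025 genes of the table the motif was found for 8.80%, and in 7.69% of 32817 windows. The E-box TCACGTG (reverse complement CACGTGA), the core site of the lysosomal regulator TFEB, was in none of the 27 and in 3.13% of all windows. A match is a description of the letters in a window and not of a bound site. A monocyte gene (Ly6c2), an effector gene that rose in KO (Lyz2) and a pair of resident genes that did not pass the test (Mrc1 and Folr2) are shown, since the same letters lie upstream of genes that behaved differently. The motif is in capitals and each sequence runs 5′ to 3′ on the strand of its gene, stopping where annotated exons begin.
Lyz2, chr10:117282322-117282522, minus strand: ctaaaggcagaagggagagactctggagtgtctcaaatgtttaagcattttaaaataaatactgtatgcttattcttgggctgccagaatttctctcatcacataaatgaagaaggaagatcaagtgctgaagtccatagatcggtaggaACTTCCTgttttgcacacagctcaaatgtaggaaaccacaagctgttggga
Ly6c2, chr15:75111972-75112221, minus strand: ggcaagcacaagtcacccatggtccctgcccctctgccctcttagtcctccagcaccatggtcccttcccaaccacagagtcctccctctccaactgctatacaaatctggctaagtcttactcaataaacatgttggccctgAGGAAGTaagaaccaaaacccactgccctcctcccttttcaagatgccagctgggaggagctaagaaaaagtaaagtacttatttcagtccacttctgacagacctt
Mrc1, chr2:14229164-14229391, plus strand: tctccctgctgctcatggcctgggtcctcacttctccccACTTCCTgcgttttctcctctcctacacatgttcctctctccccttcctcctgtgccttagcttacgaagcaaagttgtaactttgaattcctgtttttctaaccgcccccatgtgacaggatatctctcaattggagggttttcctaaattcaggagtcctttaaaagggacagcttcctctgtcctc
Folr2, chr7:101857195-101857440, minus strand: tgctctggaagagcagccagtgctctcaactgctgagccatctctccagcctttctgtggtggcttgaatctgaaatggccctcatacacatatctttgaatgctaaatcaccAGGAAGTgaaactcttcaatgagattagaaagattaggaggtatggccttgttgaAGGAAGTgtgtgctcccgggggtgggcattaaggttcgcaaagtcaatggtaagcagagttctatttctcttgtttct
The motif reads forward in Ly6c2 and at both positions in Folr2 (82 and 137 bases before the start), and as its reverse complement in Lyz2 (100 bases before) and Mrc1 (211 bases before).

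The resident genes differed least between genotypes. None of the 4 passed the test in the averaged comparison, their median log2 fold change was 0.10, and in each of them the KO libraries overlapped the WT libraries. Within the 4 libraries low in long transcripts their median difference was -0.14, with 1 of 4 higher in KO, and within the 5 libraries high in them it was 0.45, with 4 of 4 higher. Lyve1, a hyaluronan receptor also made by lymphatic endothelium, stood at 30.5 and 13.9 CPM in WT vehicle, 23.4 and 14.1 in WT ifetroban, 27.1 and 21.9 in KO vehicle, and 21.5, 17.5 and 28.6 in KO ifetroban. The 2 WT vehicle libraries were farther apart than the means of any groups, and the log2 fold change was 0.20 ± 0.26 (SE). Folr2, a folate receptor, had the narrowest range, 8.76 to 13.8 CPM in WT and 9.35 to 13.1 CPM in KO, with a log2 fold change of 0.00 ± 0.15. Cd163, the scavenger receptor for haemoglobin bound to haptoglobin, was at 16.2, 20.1, 20.4 and 17 CPM in WT, 12.2 and 15.6 in KO vehicle and 14.1, 19.5 and 31.1 in KO ifetroban. Both KO vehicle values lay below every WT value and 1 KO ifetroban value lay above all of them. The log2 fold change of Cd163 was -0.38 ± 0.33 on vehicle, 0.21 ± 0.30 on ifetroban and -0.09 ± 0.22 averaged, the only negative average among the 34 genes. Mrc1 (chromosome 2, 14229392 to 14332057), the mannose receptor CD206, was at 27.8, 39.4, 41.6 and 32.3 CPM in WT, 47.5 and 46.8 in KO vehicle and 37.7, 57.0 and 59.96 in KO ifetroban. Of its KO values only that of KO ifetroban 1 reached into the WT range, and the log2 fold change of 0.48 ± 0.18 had an adjusted p of 0.227 in edgeR.

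The lipid-associated genes had a median log2 fold change of 1.63, and all 4 were higher in KO. Of these, 2 genes, Trem2 and Lgals3, rose at an adjusted p under 0.05 in edgeR, against 0.505% of all tested genes called higher. Trem2 (ENSMUSG00000023992, chromosome 17, 48346401 to 48354147, plus strand) encodes a receptor for lipids that signals through the adaptor made by Tyrobp. Its levels were 1.64 and 1.55 CPM in WT vehicle, 1.69 and 1.27 in WT ifetroban, 6.79 and 6.12 in KO vehicle, and 5.38, 3.74 and 5.58 in KO ifetroban. The lowest KO library was above the highest WT library by more than the whole WT range. Trem2 was 3.65-fold higher in KO (log2 fold change 1.87 ± 0.21, edgeR adjusted p = 0.0125). It was called in 5 of the 9 fits that left out 1 library, with adjusted p from 0.00185 to 0.115, and its fold change stayed between 1.77 and 1.98 on the log2 scale. Unlike many genes of the list it was alike in the 2 KO vehicle libraries, at a ratio of 1.11. Lgals3 (chromosome 14, 47367751 to 47386160, plus strand) encodes galectin-3, a sugar-binding protein that macrophages secrete. It was at 2.36, 2.28, 5.06 and 2.5 CPM in WT, 34.1 and 10.2 in KO vehicle and 27.9, 17.1 and 15.2 in KO ifetroban. WT ifetroban 1 was the highest of the WT libraries and still below all KO libraries. The log2 fold change of Lgals3 was 2.83 ± 0.39, a 7.09-fold difference (edgeR adjusted p = 0.0304). Per kb of exon, Lgals3 moved from rank 23 of the 34 genes in WT (1.64 CPM per kb) to rank 9 in KO (11.2 CPM per kb), the farthest climb in the list.

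The other 2 lipid-associated genes were higher in KO without passing the test. Gpnmb, a transmembrane glycoprotein of lysosome-rich macrophages, was at 1.23, 1.66, 1.99 and 2.58 CPM in WT, 2.56 and 4.09 in KO vehicle and 4.07, 9.23 and 7.14 in KO ifetroban. WT ifetroban 2 and KO vehicle 1 were nearly level, so the genotypes overlapped, and the log2 fold change was 1.39 ± 0.29 (edgeR adjusted p = 0.0685). Cd9, a tetraspanin found on many cell types of the heart besides macrophages, was at 32.3, 23.8, 27.1 and 19.7 CPM in WT, 53.6 and 37.7 in KO vehicle and 37.2, 26.6 and 32.0 in KO ifetroban. KO ifetroban 2 and 3 lay within the WT range, and the log2 fold change was 0.58 ± 0.18 (edgeR adjusted p = 0.172).

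The monocyte genes had large fold changes at low levels. All 3 were higher in every KO library than in any WT library (5.03% of all tested genes were), with a median log2 fold change of 3.01. Plac8 alone was called, against 0.505% of all tested genes called higher. Ly6c2 and Plac8 passed the filter on low counts only because of the KO libraries. Their higher level in KO, and the call of Plac8, were therefore partly fixed by the filter. Counts of the 3 monocyte genes were small in WT, 3 to 12 reads per library. Ly6c2, a surface protein of inflammatory monocytes, was at 0.308, 0.116, 0.192 and 0.238 CPM in WT, 2.14 and 0.318 in KO vehicle and 1.12, 0.552 and 0.582 in KO ifetroban. KO vehicle 2, at 8 reads, was barely above the library labelled WT vehicle 1, at 6 reads. The log2 fold change of Ly6c2 was 2.16 ± 0.62 (edgeR adjusted p = 0.150). Its near-identical neighbour Ly6c1, an endothelial gene, was at 65.4 to 177 CPM, and reads that map to both are not counted, so the level of Ly6c2 is uncertain. Plac8 (chromosome 5, 100553725 to 100572245, minus strand) is highly expressed in blood monocytes. It was at 0.308, 0.386, 0.115 and 0.198 CPM in WT, 3.91 and 0.953 in KO vehicle and 2.24, 0.951 and 1.44 in KO ifetroban. Its log2 fold change was 3.01 ± 0.53 (edgeR adjusted p = 0.0475). Clec4d, a C-type lectin of monocytes that neutrophils also carry, was at 0.616, 0.348, 0.460 and 0.277 CPM in WT, 11.1 and 1.43 in KO vehicle and 4.91, 2.12 and 0.970 in KO ifetroban. The KO vehicle libraries were farther apart than the lower of them was from WT, and the log2 fold change of 3.26 ± 0.71 had an adjusted p of 0.0774 in edgeR. Without KO vehicle 1 and KO ifetroban 1 the median of the 3 monocyte genes was 1.83, and that of the 4 lipid-associated genes was 1.73.

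The contrast between the 3 lists was also read within each library, as the mean log2 CPM of a list. The resident mean was 4.04 to 4.42 in WT and 4.17 to 4.86 in KO, which overlap. The lipid-associated mean was 1.73 to 2.24 in WT and 3.31 to 3.77 in KO, and the monocyte mean was -1.71 to -1.20 in WT and -0.24 to 2.22 in KO, with no overlap in either. As a difference within a library, lipid-associated minus resident was -2.51 to -2.14 in WT and -1.21 to -0.55 in KO. Monocyte minus resident was -6.13 to -5.44 in WT and -4.77 to -2.12 in KO. The 3 KO ifetroban libraries were close in the lipid-associated mean (3.55 to 3.65), and the 2 KO vehicle libraries were far apart in the monocyte mean (-0.24 and 2.22). These means describe the libraries and carry no test, since the genes were picked with results known.

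**Figure D2:**
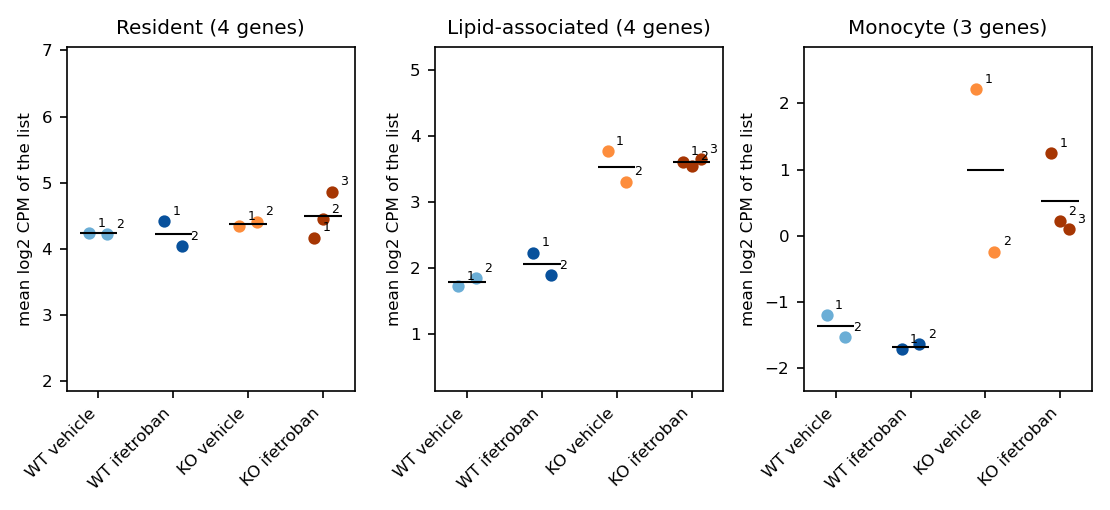
Mean log2 CPM of the 4 resident, 4 lipid-associated and 3 monocyte genes in each library, by group; points are libraries with their replicate number, lines are group means, and the 3 axes span the same number of log2 units from different starting points. The resident points of WT (4.04 to 4.42) and KO (4.17 to 4.86) overlap, the lipid-associated KO points are tight and above WT, and the monocyte KO points run from -0.24 to 2.22.

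The Fc receptors and ITAM adaptors bind antibody-coated particles and pass the signal inward. All 4 genes were higher in every KO library than in any WT library (5.03% of all tested genes were). Their median log2 fold change was 1.5. Fcgr3 and Tyrobp rose at an adjusted p under 0.05 in edgeR, against 0.505% of all tested genes called higher. Fcgr3 encodes a low-affinity receptor for IgG. Its levels were 11.6, 7.73, 10.5 and 7.49 CPM in WT, 31.1 and 18.3 in KO vehicle and 19.7, 17.4 and 16.3 in KO ifetroban, and the log2 fold change was 1.17 ± 0.21 (edgeR adjusted p = 0.0475). Tyrobp encodes DAP12, the adaptor of TREM2. It was at 7.6, 6.41, 6.41 and 4.16 CPM in WT, 30.6 and 14.6 in KO vehicle and 20.3, 11.8 and 13.1 in KO ifetroban. KO vehicle 1 was the highest library, KO ifetroban 1 the next, and the log2 fold change of Tyrobp was 1.60 ± 0.27 (edgeR adjusted p = 0.0451). Fcgr1, the high-affinity IgG receptor, and Fcer1g, the gamma chain shared by Fc receptors, were at 1.35 to 2.65 and 3.76 to 7.85 CPM in WT and at 4.19 to 12.1 and 8.92 to 26.1 CPM in KO, with log2 fold changes of 1.85 ± 0.34 and 1.40 ± 0.31.

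Among the 6 scavenger, phagocytic and innate receptors, Fcrls was the only one called. Fcrls (ENSMUSG00000015852, chromosome 3, 87250758 to 87263738, minus strand) encodes an Fc receptor-like scavenger molecule of mice that is best known as a marker of microglia. It was at 6.42 and 5.53 CPM in WT vehicle, 5.18 and 5.63 in WT ifetroban, 16.8 and 15.6 in KO vehicle, and 10.2, 11.1 and 12 in KO ifetroban. Libraries within each group were close and the 3 levels, WT, KO ifetroban and KO vehicle, did not overlap. Its log2 fold change was 1.24 ± 0.13 (edgeR adjusted p = 0.0107), the smallest adjusted p of the 34 genes and the fifth smallest p of all tested genes. Of the other microglia-type genes listed (5 tested), none was called and the median log2 fold change was 0.19. Tmem119 had the smallest p of them, at 1.95 to 3.92 CPM in WT and 4.63 to 7.74 CPM in KO (log2 fold change 1.06 ± 0.21, edgeR adjusted p = 0.0628). The other receptors varied more among the KO libraries. Msr1, scavenger receptor A, was at 1.98 to 4.07 CPM in WT and at 32.1 and 3.73 CPM in the KO vehicle libraries, a ratio of 8.59 between replicates, so that KO vehicle 2 lay inside the WT range. Cd14, the co-receptor for lipopolysaccharide, was at 2.73 to 7.08 CPM in WT and 7.95 to 34.8 CPM in KO (log2 fold change 1.76 ± 0.40). Cd84, an adhesion receptor of leukocytes, was at 1.55 to 3.28 CPM in WT and 3.61 to 7.4 CPM in KO (1.19 ± 0.25). Adgre1, the F4/80 antigen of mature mouse macrophages, was at 12.1 to 13.7 CPM in WT and 16.7 to 21.8 CPM in KO, a small shift (0.64 ± 0.13, edgeR adjusted p = 0.0680) with little spread. Mertk, the receptor by which macrophages engulf dying cells, was at 8.16 to 11.8 CPM in WT and 8.84 to 12.4 CPM in KO, with a log2 fold change of 0.03 ± 0.16.

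The lysosome and effector proteins had the most calls, 5 of 7 genes, against 0.505% of all tested genes called higher. Their median log2 fold change was 1.20. Ctss (chromosome 3, 95526786 to 95556403, plus strand) encodes cathepsin S, a protease that prepares antigen for display. It was at 16.0 and 11.5 CPM in WT vehicle, 14.5 and 10.9 in WT ifetroban, 48.2 and 26.5 in KO vehicle, and 44.4, 34.4 and 33.1 in KO ifetroban. All KO libraries were above all WT libraries, and the log2 fold change was 1.5 ± 0.21 (edgeR adjusted p = 0.0304). Mpeg1, a pore-forming protein that acts on engulfed bacteria, was at 7.80, 14.1, 15.0 and 9.90 CPM in WT, 28.1 and 23.4 in KO vehicle and 27.6, 36.9 and 36.0 in KO ifetroban (log2 fold change 1.33 ± 0.21, edgeR adjusted p = 0.0425). Its mean was 25.7 ± 3.30 CPM (SD, n = 2) in KO vehicle and 33.5 ± 5.11 CPM (SD, n = 3) in KO ifetroban, an order opposite to that of most genes of the list. Lyz2 (chromosome 10, 117277331 to 117282321, minus strand), the lysozyme of macrophages, was at 143, 116, 124 and 89.5 CPM in WT, 368 and 219 in KO vehicle and 295, 237 and 217 in KO ifetroban (1.20 ± 0.19, edgeR adjusted p = 0.0432). Its copy Lyz1 was at 0.746 to 2.52 CPM, and reads shared by both are not counted. Apoe (chromosome 7, 19696109 to 19699188, minus strand), which carries lipid out of macrophages and is also made by other cells, was at 244, 228, 188 and 215 CPM in WT, 400 and 460 in KO vehicle and 313, 363 and 428 in KO ifetroban (0.87 ± 0.13, edgeR adjusted p = 0.0331). Laptm5, a lysosomal membrane protein of blood cells, was at 16.1, 19.98, 19.7 and 15.7 CPM in WT, 53.2 and 30.3 in KO vehicle and 40.9, 33.2 and 33.4 in KO ifetroban (1.11 ± 0.18, edgeR adjusted p = 0.0451). These 5 genes shared the pattern of no overlap between genotypes, as did 5.03% of all tested genes in the same direction. Apoe and Lyz2 stood apart from the rest in level, at 102 and 89.8 CPM per kb in WT and 184 and 203 CPM per kb in KO, and together made up 49.0% to 59.6% of the CPM of the 34 genes in each library. Cd68, a sialomucin of lysosomes, was at 4.79 to 9.86 CPM in WT and 13.8 to 28.5 CPM in KO (1.40 ± 0.28, edgeR adjusted p = 0.0607). Ctsk, cathepsin K, a collagen-degrading protease also made by fibroblasts, overlapped between genotypes at 4.06 to 6.16 and 4.91 to 10.2 CPM (0.42 ± 0.26).

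Among the 6 genes of identity and signalling, all were higher in every KO library than in any WT library (5.03% of all tested genes were). Of these 6, Fgr was called, against 0.505% of all tested genes called higher. Fgr (chromosome 4, 132974095 to 133001910, plus strand) encodes a SRC-family kinase of myeloid cells. It was at 0.205, 0.232, 0.384 and 0.357 CPM in WT, 4 to 10 reads per library, at 9.35 and 1.19 CPM in KO vehicle and at 5.38, 2.27 and 1.78 CPM in KO ifetroban. KO vehicle 1 and KO ifetroban 1 were the highest in their groups by a wide margin. The log2 fold change of 3.80 ± 0.68 was the largest of the 34 genes (edgeR adjusted p = 0.0486), and it was 2.43 without those 2 libraries. Fgr passed the filter on low counts only because of the KO libraries, so its call and its lack of overlap were partly fixed by the filter. Spi1, which encodes PU.1, was at 3.45 to 6.11 CPM in WT and 8.49 to 22.1 CPM in KO (1.61 ± 0.30, edgeR adjusted p = 0.0569). Csf1r, the receptor for the growth factor on which macrophages depend, was at 40.4 to 45.8 CPM in WT and 54.1 to 74.6 CPM in KO, a shift of 0.54 ± 0.12 with little spread in either genotype. Cd53 and Ms4a7, membrane proteins of the tetraspanin and MS4A families, had log2 fold changes of 1.39 ± 0.33 and 1.11 ± 0.27, and Aif1, the actin-binding protein IBA1, one of 1.04 ± 0.30.

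**Figure D3:**
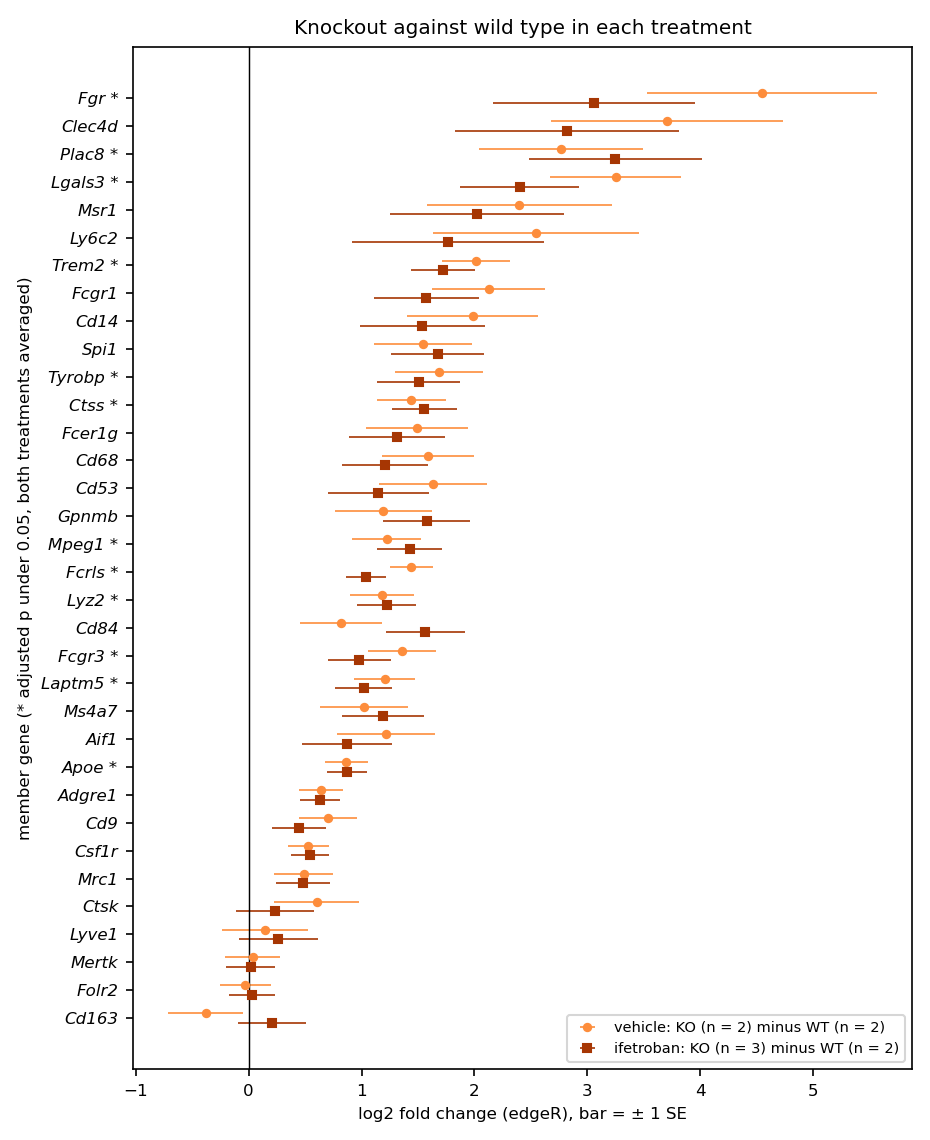
Log2 fold change of KO against WT for each gene on vehicle (circles, 2 against 2 libraries) and on ifetroban (squares, 3 against 2), with bars of 1 SE from edgeR; stars mark the 12 genes called in the average of both. Mertk and the resident genes Lyve1, Folr2 and Cd163 lie lowest, near 0, and Fgr, Clec4d and Plac8, with wide bars, are highest in the average of both treatments, by which the genes are ordered.

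Within each treatment taken alone, nearly all genes of the list were again higher in KO, and few were called. On vehicle, 32 of the 34 genes were higher in KO (48.5% of all genes), the median log2 fold change was 1.29, and 1 gene, Fcrls, was called (1.44 ± 0.19, edgeR adjusted p = 0.0486), against 0.0393% of all genes called higher. At an unadjusted p under 0.05, 28 of the 34 were higher (8.26% of all genes), and in 28 the KO vehicle libraries were both above both WT vehicle libraries (16.8% of all genes). DESeq2 called 19 of the 34 in this comparison and 368 of all genes (1.35%). On ifetroban, all 34 genes were higher in KO (51.8% of all genes), the median was 1.21, and edgeR called none of them, as it called 0% of all genes higher. At an unadjusted p under 0.05 there were 25 of the 34 (3.85% of all genes), the libraries did not overlap in 27 (16.1% of all genes), and DESeq2 called 13, and 67 of all genes (0.246%). Ly6c2, Plac8 and Fgr passed the filter on low counts only because of the KO libraries. Without them, 25 of 31 genes were higher at an unadjusted edgeR p under 0.05 on vehicle and 23 of 31 on ifetroban. The counts of genes without overlap include all 3. On vehicle the size depended in part on KO vehicle 1. This library had the higher value of its pair for 27 of the 34 genes, and for 14 of them, against 8.71% of all tested genes, it held more than 2 times the CPM of KO vehicle 2. Without it the vehicle median was 0.79 and no gene was called, and without KO vehicle 2 the median was 1.54 and 21 were called. In that last fit 1734 of all genes (10.9%) were called, against 8 with all libraries. The treatments share no library, and the 2 medians, 1.29 and 1.21, were not tested against each other as such. The test of each gene for a different genotype effect between treatments, which is the same as the interaction of drug and genotype, called none of the 34 and none of all tested genes (0%), with 0 of the 34 at an unadjusted p under 0.05 (1.38% of all genes) and 0 called by DESeq2. The smallest p in that test among the 34 was 0.149 for Fcrls, whose interaction was -0.40 on the log2 scale.

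Ifetroban was compared with vehicle within the knockout to ask whether blocking the receptor changes these genes in the diseased ventricle. None of the 34 genes passed the test (0% of all tested genes were called), DESeq2 called none, 8 genes were higher (47.6% of all genes) and 26 lower on ifetroban, and the median log2 fold change was -0.24 against -0.02 over all genes. At an unadjusted p under 0.05, edgeR placed 1 gene higher, against 2.59% of all genes, and 1 lower, against 2.42%. The higher one was Gpnmb, at 2.56 and 4.09 CPM on vehicle and 4.07, 9.23 and 7.14 CPM on ifetroban, a 2.05-fold difference (log2 fold change 1.04 ± 0.37, edgeR adjusted p = 0.688). KO ifetroban 1 and KO vehicle 2 were level, so the groups overlapped. The lower one was Fcrls, whose 3 ifetroban libraries (10.2, 11.1 and 12 CPM) were all below both vehicle libraries (16.8 and 15.6 CPM), with a log2 fold change of -0.55 ± 0.17 (edgeR adjusted p = 0.688). Trem2 and Cd9 also had all ifetroban libraries below both vehicle libraries, with log2 fold changes of -0.40 ± 0.25 and -0.52 ± 0.23. Of all tested genes, 7.58% were placed so, and 8.38% the other way. No gene of the 34 had all its ifetroban libraries above both vehicle libraries. The sign of the median turned with 1 library. Without KO vehicle 1, 25 genes were higher and 9 lower on ifetroban (52.6% and 47.4% of all genes), and the median of the 34 was 0.21. Clec4d went from -1.24 to 0.88, Cd14 from -1.07 to 0.16 and Msr1 from -0.53 to 1.72. Fcrls (-0.50), Trem2 (-0.32), Gpnmb (0.74) and Cd163 (0.47, from 0.63) kept their direction. Both KO vehicle libraries and KO ifetroban 1 were low in long transcripts, and KO ifetroban 2 and 3 were high. Drug and this class therefore coincide in part in this comparison. For Gpnmb and Cd163, with 6514 and 5461 bases of exon, KO ifetroban 1 lay between the vehicle values. For Fcrls and Trem2 it lay below both. Without KO vehicle 2 the median was -0.56, 15 of the 34 genes were lower at an unadjusted p under 0.05 in edgeR, against 11.7% of all genes, and none was called, while 449 of all genes were.

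**Figure D4:**
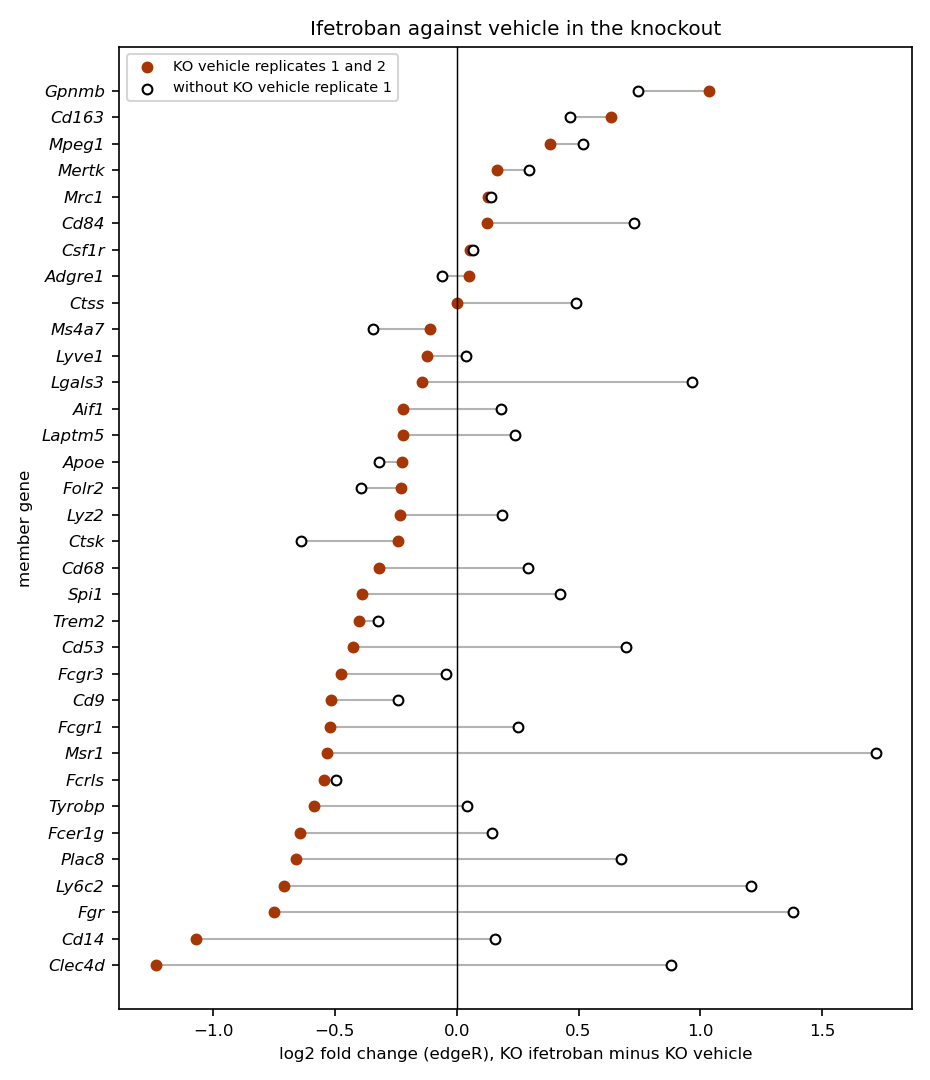
Log2 fold change of KO ifetroban (3 libraries) against KO vehicle for each gene, with both KO vehicle libraries (filled) and without KO vehicle 1 (open), joined by a line. With both libraries 26 of 34 points lie below 0, and without replicate 1 only 9 do; Gpnmb and Cd163 lie above 0 and Fcrls and Trem2 below 0 either way.

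In wild-type ventricle, ifetroban against vehicle gave 15 of the 34 genes higher (47.2% of all genes) and 19 lower, with a median log2 fold change of -0.10 against -0.02 over all genes. No gene was called by edgeR (0% of all tested genes were) or by DESeq2, and none of the 34 reached an unadjusted p under 0.05, against 1.26% of all genes. Without the library labelled WT vehicle 1 the counts were again 15 higher and 19 lower, the median was -0.03 and none was called, and the median ran from -0.31 (without WT ifetroban 1) to 0.09 (without WT ifetroban 2) when 1 WT library was left out. Plac8 was lowest at -1.14 ± 0.90, from 6 and 10 reads on vehicle to 3 and 5 on ifetroban, and Fgr, Lgals3 and Gpnmb were highest at 0.74 ± 1.18, 0.71 ± 0.58 and 0.65 ± 0.43. For Plac8 and Fgr these standard errors are near or above the fold change itself, at 3 to 10 reads per library.

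Genes around these markers were read from further lists, in the averaged comparison of KO with WT. Of all tested genes there, 49.5% had a positive log2 fold change and 0.505% were called higher. At an unadjusted edgeR p under 0.05, 10.6% were higher and 5.94% lower. Of 16 listed genes of macrophage growth factors and recruitment, 15 were tested, all 15 were higher in KO with a median log2 fold change of 2.04, 13 at an unadjusted p under 0.05, and none was called by edgeR. Csf2rb, the shared receptor chain for the growth factors GM-CSF and interleukin 3, was at 1.03 to 1.94 CPM in WT and 3.53 to 15.3 CPM in KO (2.26 ± 0.43), and Ccl12, a chemokine that attracts monocytes, at 0.464 to 1.23 and 1.78 to 16.6 CPM (2.99 ± 0.59). In both the highest KO library was KO vehicle 1, and without that library and KO ifetroban 1 the median of this list was 1.02. Of 14 further genes of resident macrophages, none was called, 6 were higher and 1 lower at an unadjusted p under 0.05, and the median was 0.30, above that of the 4 resident markers. Pf4, a chemokine of resident macrophages and platelets, overlapped at 7.29 to 14.5 and 11 to 31.5 CPM (0.93 ± 0.27), as did Clec10a, a lectin, at 1.62 to 3.14 and 3.04 to 4.19 CPM (0.66 ± 0.23). Of 23 genes of lipid handling and lysosomes, none was called, 9 were higher at an unadjusted p under 0.05 and the median was 0.21. Spp1, osteopontin, which macrophages make in scarring tissue, had the smallest p. It was at 0.205, 0.348, 0.729 and 0.475 CPM in WT, 36.9 and 2.18 in KO vehicle and 56.8, 19.4 and 5.78 in KO ifetroban, with a log2 fold change of 5.78 ± 1.05 (edgeR adjusted p = 0.0529). The KO libraries differed by more than 1 order of magnitude among themselves and all lay above WT. Ctsz, cathepsin Z, had a log2 fold change of 0.96 ± 0.18 and Cd63, a lysosomal tetraspanin, one of 0.81 ± 0.26.

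Markers of other cells were measured beside these genes, and their part in the results was not tested. In the averaged comparison 49.5% of all tested genes had a positive log2 fold change. Of all tested genes, 10.6% were higher at an unadjusted edgeR p under 0.05 and 0.505% were called higher. All 8 pan-leukocyte genes were higher in KO at an unadjusted p under 0.05, with a median log2 fold change of 1.23, and Lcp1 (1.35 ± 0.22, edgeR adjusted p = 0.0437) and Ptprc, which encodes CD45 (0.94 ± 0.16, edgeR adjusted p = 0.0451), were called. Neutrophils share Clec4d, Fgr and Plac8 with monocytes. Of 11 neutrophil markers 7 were tested, and all 7 were higher in KO with a median log2 fold change of 2.13. Mmp8, a collagenase, and Csf3r, the G-CSF receptor, were called (log2 fold changes of 2.86 ± 0.49 and 1.79 ± 0.32, edgeR adjusted p = 0.0451 and 0.0486). Mmp8 had only 1 to 21 reads per library, and Csf3r 23 to 189. Whether Mmp8 would pass the filter on low counts in WT alone was not tested. The summed level of the 11 markers was 3.41 to 12.9 CPM in WT and 11.9 to 31.2 CPM in KO. The granule genes Camp, Ngp, Ltf and the surface marker Ly6g had 0 to 4 reads in every library. Lymphatic endothelial markers, which share Lyve1, summed to 86.8 to 175 CPM in WT and 113 to 155 CPM in KO, with Ccl21a at 0 reads in all 9 libraries. Fibroblast markers summed to 751 to 837 CPM in WT and 925 to 1355 CPM in KO, and cardiomyocyte markers to 41764 to 48211 CPM in WT and 32997 to 44143 CPM in KO. Markers of T and NK cells summed to 0.719 to 2.13 and 1.45 to 2.21 CPM, and of B cells to 3.25 to 4.95 and 3.30 to 6.32 CPM. Dendritic cell markers, of which 5 of 7 were tested, summed to 18.1 to 26.9 and 19.0 to 30.9 CPM, with a median log2 fold change of 2.16 and none called. Endothelial markers summed to 557 to 830 CPM in WT and 617 to 812 CPM in KO, and mast cell markers to 6.72 to 10.1 and 6.93 to 10.6 CPM. Red cell genes (the globins and Alas2), which come with blood, summed to 379 CPM in KO vehicle 1 and 65.2 CPM in KO vehicle 2, the pair in which the monocyte genes were far apart. They summed to 473 CPM in the library labelled WT vehicle 1 and 43.0 to 135 CPM in the other WT libraries, where the monocyte genes were low throughout, and to 193, 70.2 and 178 CPM in KO ifetroban. Liver genes (Alb, Apoa1, Apoa2 and Ttr), from a tissue that also makes Apoe, summed to 80.2 CPM in KO vehicle 1 and 6.97 CPM in KO ifetroban 1, and to 0.832 to 2.77 CPM in the other 7 libraries.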

How the data were processed

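The authors deposited a table of raw counts per gene for each of the 9 libraries. The submitters' processing notes name STAR 2.5.2b, HTSeq and the mouse build GRCm38, and the annotation release is not given in the sources used here. Rows naming no gene (26.6% to 31.9% of reads) were left out. Of the stranded columns the reverse one was used, with 14.5 times as many counts as the forward one. Reads with several alignments are not counted in such tables, which limits genes with near-identical copies. Identifiers were matched to GENCODE M21 for symbols, exonic lengths and coordinates (GRCm38, counted from 1; 49412 of 49671 matched).

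Groups were taken from the sample titles. The test was edgeR's two-sided quasi-likelihood F test (version 4.0.16, R 4.3.3) with TMM scaling and filterByExpr, which kept 15261 genes, and 1 coefficient per group over all 9 libraries. Benjamini-Hochberg adjustment ran over all tested genes, with 0.05 as the threshold for a call. Fold changes carry edgeR's prior count of 0.125, and standard errors were calculated back from the F statistic. CPM used TMM library sizes, and means of log2 CPM a prior count of 2. DESeq2 1.42.0, other scalings and filters, terms for transcript length, the replicate number as a block and the removal of libraries were the alternatives.

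The 34 genes, the role groups and the further lists were chosen with earlier results of these data known. Values in every library are given for the 11 genes of the resident, lipid-associated and monocyte lists, for each member called in any comparison and for the 5 members with the smallest p in the averaged comparison. From the further lists described by gene, up to 3 genes with the smallest p are named, and some of these are not reported here. Promoter sequences are RefSeq's, build GRCm38.p6.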

Additional observations from a re-analysis of the deposited data

How the results depend on the processing

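Counts of called genes depended on the setting far more than fold changes did. In KO against WT averaged over both treatments, 12 of the 34 genes were called in edgeR, 27 in DESeq2, 29 without the low-count filter, 2 (Fcrls and Mpeg1) with a term for the transcript length class, 3 without WT vehicle 1 and KO vehicle 1, and 0 to 27 when 1 library was left out. Over all genes the first 4 of these settings called 82, 723, 1684 and 9, so the counts of the 34 followed the total. With 1 library left out, each of the 4 WT libraries left out gave 0, KO vehicle 1 gave 5, KO vehicle 2 gave 27, and KO ifetroban 1, 2 and 3 gave 4, 1 and 2. The monocyte median was 1.83 without KO vehicle 1 and KO ifetroban 1, and 2.20 to 3.35 with 1 library left out. On vehicle, where edgeR called 1 (8 of all genes), the counts were 19 in DESeq2 (368 of all), 22 without the filter (1195) and 2 with length offsets (18). The count was 0 with the 2 groups alone (5 of all genes) and with the length class term (1 of all). Leaving out 1 library gave 0 to 21, and medians of 0.79 to 1.59. The median was 0.79 without KO vehicle 1 and KO ifetroban 1. On ifetroban, where edgeR called 0, the counts were 13 in DESeq2 (67 of all genes), 23 without the filter (428 of all) and 1 with the 2 groups alone (12 of all).

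For ifetroban against vehicle in KO, 2 genes, Clec4d and Cd14, were called lower without the filter, where 428 of all genes (1.57%) were called. The median of -0.24 became 0.21 without WT vehicle 1 and KO vehicle 1, and -0.56 to 0.21 with 1 library left out. The interaction median of -0.18 became 0.29 without the same pair and -0.37 to 0.26 with 1 left out. The interaction median of the 3 monocyte genes, -0.78, turned to 0.75 without KO vehicle 1 and KO ifetroban 1 and to 0.79 without WT vehicle 1 and KO vehicle 1, and ran from -1.60 to 1.23 with 1 left out. With a replicate block, 24 of the 34 genes (531 of all genes) were called in the averaged comparison and 8 (45 of all) on vehicle. The numbers were not taken to pair the libraries, because nothing in the labels ties them and 7 of the 12 correlations of same-numbered deviations, which ran from 0.00108 to 0.478, were at or under 0.1. The cause of these shifts was not tested. Where 1 library of a group of 2 was left out, the library that stayed was assumed to vary like the other groups. Depth limits Ly6c2, Plac8, Clec4d and Fgr, at 3 to 12 reads in each WT library.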
